A study of Mus musculus with 2 samples.

Results

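Cirbp and Rbm3 encode the cold-inducible RNA-binding proteins of mammals. Both were taken by their gene symbol in both libraries, which gave 2 of 55536 annotated genes and 18 of 141864 annotated transcripts, 7 of Cirbp and 11 of Rbm3. They were chosen with the difference of Cirbp between the animals already known, so the differences between the animals are given below as a description with no test. The libraries are total RNA-seq of the left cerebral cortex of adult female B6CASTF1/J mice, the first-generation cross of C57BL/6J and CAST/EiJ, aged 8 to 10 months, made from 300 ng of RNA with synthetic ERCC spike-in RNAs added. There is 1 group of 2 animals, with 1 library each and no treatment. Reads of both parental alleles were counted together on the C57BL/6J reference. Replicate 2 is labelled animal 5 and replicate 1 animal 1, although both carry the same donor entry. With 1 library per animal, no difference between the animals has a replicate check, and none has a p-value.

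CIRBP and RBM3 are small proteins with a single RNA recognition motif followed by a stretch rich in glycine and arginine. Mild cooling raises the RNA of both in many mammalian cells, and heat lowers it. In mice, RBM3 has been linked to the protection and regrowth of synapses after cooling, and CIRBP to the daily body temperature rhythm and the choice of RNA ends in clock genes. The RNA of each gene is also made in forms that keep an intron or hold an early stop codon, and such forms are usually kept in the nucleus or removed by nonsense-mediated decay, the pathway that destroys RNAs with a stop codon placed too far upstream.

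Cirbp (ENSMUSG00000045193.13) lies in build mm10 on the plus strand of chromosome 10, from 80165985 to 80172786. Rbm3 (ENSMUSG00000031167.16) lies on the minus strand of the X chromosome, from 8138975 to 8145880. GENCODE M21 annotates 2 Cirbp transcripts as coding, 4 as retained introns and 1 as a target of nonsense-mediated decay, called a decay form here. For Rbm3 it annotates 6 coding transcripts, 2 retained introns, 2 decay forms and 1 processed transcript, a noncoding class with no reading frame. Cirbp-202, the coding form with a complete reading frame, has 172 codons. Cirbp-207, the other coding form, starts in an upstream first exon and is annotated without its end. Of the Rbm3 coding forms, Rbm3-203 and Rbm3-204 have 154 codons and Rbm3-202 and Rbm3-206 have 153.

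**Figure D1:**
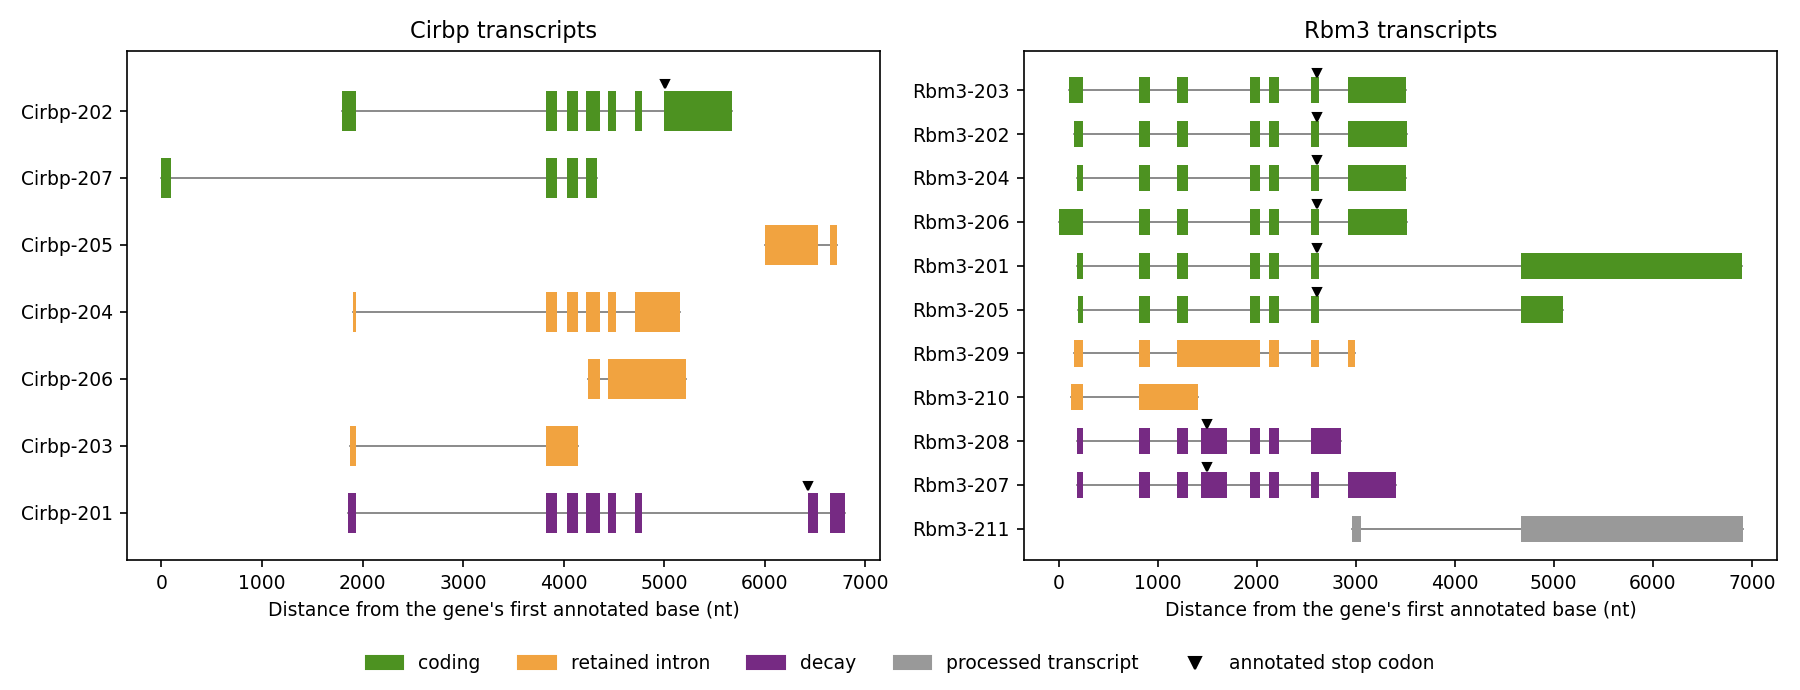
Exons (boxes) of the 7 Cirbp transcripts (left) and 11 Rbm3 transcripts (right), with the distance from the gene's first annotated base in nt on the x axis. Colours mark the annotated class and triangles the annotated stop codon. Cirbp-205 lies wholly past the end of Cirbp-202, and the decay forms Rbm3-207 and Rbm3-208 hold an exon that no coding form has.

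The Cirbp forms part at the last splice site inside the reading frame, and their sequences are shown from there. Lower case marks the last 30 bases of the exon they share. Capitals mark what follows, up to and including the stop codon for Cirbp-202 and Cirbp-201 and for the first 30 bases of the kept intron for Cirbp-204, all on the plus strand in GENCODE M21.
Cirbp-202: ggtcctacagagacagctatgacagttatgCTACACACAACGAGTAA
Cirbp-201: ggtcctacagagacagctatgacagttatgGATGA
Cirbp-204: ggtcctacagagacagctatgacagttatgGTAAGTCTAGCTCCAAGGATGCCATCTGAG
Cirbp-202 ends its protein in the proximal last exon. The decay form Cirbp-201 joins the same exon to a distal one, where the frame closes after 5 bases, at 168 codons, with a further exon behind it. In the retained intron form Cirbp-204 the frame runs into the intron and meets a stop codon that ends 29 bases in.

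The Rbm3 forms part after the third exon. Lower case again marks the last 30 bases of the shared exon, and capitals the next 63 bases of the transcript.
Rbm3-203: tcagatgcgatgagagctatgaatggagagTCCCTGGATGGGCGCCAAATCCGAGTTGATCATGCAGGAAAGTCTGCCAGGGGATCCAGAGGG
Rbm3-208: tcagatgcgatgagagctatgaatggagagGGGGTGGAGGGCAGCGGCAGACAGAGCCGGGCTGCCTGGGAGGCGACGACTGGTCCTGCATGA
Rbm3-209: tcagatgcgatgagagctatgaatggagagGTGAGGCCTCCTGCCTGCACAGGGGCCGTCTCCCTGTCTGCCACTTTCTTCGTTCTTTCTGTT
The coding form Rbm3-203 reads on into the fourth exon. The decay form Rbm3-208 takes up a cassette exon of 271 nt (chromosome X, 8144175 to 8144445), and the 63 bases shown end with its stop codon, at 90 codons. Such an exon is known as a poison exon, and in cultured cells skipping it in the cold has been described as a switch for Rbm3. The retained intron form Rbm3-209 keeps the whole intron in which the cassette lies, and its frame closes 111 bases into that intron.

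A second choice within Rbm3 is the start of the exon that holds the stop codon, where acceptors 3 bases apart are annotated. Lower case marks the 30 bases before the junction and capitals the 24 bases after it.
Rbm3-203: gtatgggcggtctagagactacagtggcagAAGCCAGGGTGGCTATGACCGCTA
Rbm3-202: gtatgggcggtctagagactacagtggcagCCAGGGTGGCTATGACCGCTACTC
The upstream acceptor adds the bases AAG, and with them 1 codon, to the frame of 153.

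The promoter of Cirbp is shown because its cold response element has been described in mice. The window runs from chr10:80167589-80167777 on the plus strand, ends at the base before the start of Cirbp-202, and comes from RefSeq in build GRCm38.p6, with the element TCCCCGCC in capitals.
Cirbp promoter: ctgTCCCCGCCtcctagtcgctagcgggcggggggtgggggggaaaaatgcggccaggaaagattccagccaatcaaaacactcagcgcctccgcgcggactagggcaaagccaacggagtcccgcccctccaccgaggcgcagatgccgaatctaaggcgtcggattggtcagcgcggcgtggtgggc
The element begins 186 bases before the start of Cirbp-202. Searched on both strands, these 8 letters occurred in 5.38% of 32851 promoter windows of 300 bases. A second Cirbp window and the single window of Srsf5, a splicing factor gene with a described cold response, did not hold these letters. The RefSeq table listed 2 windows for Cirbp, of which the one shown holds the element, and no window of Rbm3 was searched.

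The libraries held 30234441 estimated counts in replicate 2 and 28327434 in replicate 1, and spike-ins took 68108 of these in replicate 2 and 75029 in replicate 1. Over the 14127 genes averaging 50 counts or more, the coefficient of variation between the animals, from edgeR, was 12.8%. Markers of cortical neurons, astrocytes, oligodendrocytes, microglia and endothelium were all detected, with summed levels for 3 excitatory markers of 2337 TPM in replicate 2 and 2155 TPM in replicate 1, and for 3 astrocyte markers of 868 TPM in replicate 2 and 916 TPM in replicate 1. Levels are given in TPM, the deposited abundance scaled for transcript length and library size, and differences as the log2 of counts in replicate 2 over replicate 1 after TMM scaling, an edgeR method that centres most genes near 0. The tissue was measured in bulk, so fewer cells of a type and less RNA per cell cannot be told apart. Choroid plexus markers (3 of 3 detected) summed to 57.9 TPM (replicate 2) and 177 TPM (replicate 1), and of the heart, liver and brown fat markers Myh6, Alb and Ucp1 only Myh6 reached 1 TPM, with 2.52 TPM in replicate 2, against 7.06 TPM in replicate 1. Their part in the values below was not tested.

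Both genes stood well above the middle of the expressed genes. Cirbp had 1494 counts and 73.4 TPM in replicate 2, against 571 counts and 31.7 TPM in replicate 1, a mean of 52.5 ± 29.5 TPM (SD, n = 2). Rbm3 had 1531 counts and 73.7 TPM in replicate 2, against 857 counts and 42.0 TPM in replicate 1, a mean of 57.8 ± 22.4 TPM (SD, n = 2). Replicate 2 was the higher library for both, and the deposited credibility intervals of TPM, whose level is not stated, did not overlap for either gene. Those of Cirbp ran from 67.8 to 75.8 TPM in replicate 2 and from 28.3 to 34.6 TPM in replicate 1. For Rbm3 they ran from 67.7 to 75.3 TPM in replicate 2 and from 37.9 to 43.6 TPM in replicate 1. Of 13259 protein-coding genes at 1 TPM or more, with a median of 16.0 TPM, 16.6% lay above Cirbp and 14.8% above Rbm3. Rbm3 and Cirbp stood at nearly the same level in replicate 2, with a ratio of 1.00 in TPM, and at a ratio of 1.33 in replicate 1.

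The log2 difference of Cirbp was 1.27 with a counting SE of 0.0710, or 2.42-fold higher in replicate 2 (95% counting interval 2.20 to 2.66). That of Rbm3 was 0.72 with a counting SE of 0.0616, or 1.65-fold (1.52 to 1.80). Counting intervals cover the sampling of reads and not the spread between animals. Among the 14127 genes Cirbp took rank 48 and Rbm3 rank 334 in order of their log2 difference. More than 2-fold higher in replicate 2 were 100 genes, or 0.708% of those tested, and Cirbp was among them and Rbm3 was not. Credibility intervals lay wholly higher in replicate 2 for 13.9% of the genes, and for 2 of the 2 members. The members were chosen with the difference between the animals already known, so nothing is read from these counts. Scaling on the spike-ins in place of TMM shifted the middle of the 14127 genes up by 0.25 on the log2 scale, so the sign of values near 0 depends on the scaling, and the members stood at 1.53 for Cirbp and 0.98 for Rbm3. The log2 difference of Cirbp exceeded that of Rbm3 by 0.55 with a counting SE of 0.0940.

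**Figure D2:**
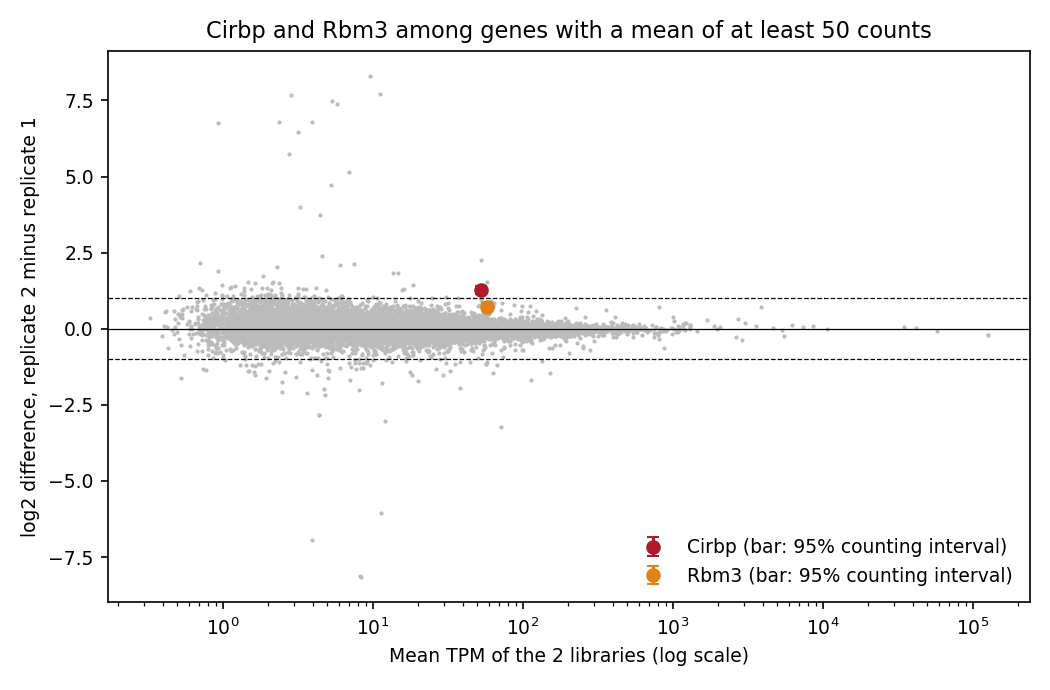
Log2 difference, replicate 2 minus replicate 1 (y axis), against the mean TPM of both libraries (x axis, log scale) for the 14127 genes averaging 50 counts or more, with Cirbp and Rbm3 in colour and bars for their 95% counting intervals. Dashed lines mark 2-fold, and the central 95% of genes lay between -0.55 and 0.71, with Cirbp at 1.27 and Rbm3 at 0.72.

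Cirbp RNA was mostly the full coding transcript. Cirbp-202 had 55.0 TPM (replicate 2) and 20.7 TPM (replicate 1), and made up 75.0% of the gene's TPM in replicate 2 and 65.2% in replicate 1. Replicate 2 was higher and the credibility intervals did not overlap, with a log2 difference of 1.36. Cirbp-207, the coding form from the upstream first exon, had 1.15 TPM on 7.01 counts in replicate 2, against 2.21 TPM on 12.98 counts in replicate 1, and the intervals overlapped. A second deposited table, a separate quantification of the same libraries in another column layout, gave Cirbp-202 51.3 TPM (replicate 2) and 19.8 TPM (replicate 1). It gave Cirbp-207 0 TPM in replicate 2, against 1.28 TPM in replicate 1, so the use of the upstream start is uncertain at this depth.

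Among the retained intron forms of Cirbp, the largest was Cirbp-205, which lies 326 nt beyond the end of Cirbp-202 and shares no exon with it. Its level was 6.02 TPM (replicate 2) and 4.67 TPM (replicate 1), with overlapping intervals and a log2 difference of 0.31 (SE 0.304, from counting and read assignment together). Cirbp-204, which keeps the last intron of the coding frame, had 5.74 TPM in replicate 2, against 2.71 TPM in replicate 1, and its intervals overlapped. Cirbp-206, a partial transcript that keeps the same intron, had 2.33 TPM (34.88 counts) in replicate 2. It was listed at 0 in replicate 1, where 3 counts would equal 0.208 TPM. Its upper credibility bound in replicate 1 was 1.11 TPM, and its intervals overlapped. Read together, these forms with the last intron kept had 8.07 TPM (replicate 2) and 2.71 TPM (replicate 1), a log2 difference of 1.51 with a counting SE of 0.263. The counting SE of this and of every other sum of forms leaves out the error of read assignment. With that error included, the SE of Cirbp-204 alone was 0.498. Cirbp-203 had 0.22 TPM in replicate 2 and 0 in replicate 1, below the 0.576 TPM that 3 counts equal in replicate 2. The decay form Cirbp-201 had 2.91 TPM in replicate 2, against 1.41 TPM in replicate 1, with overlapping intervals.

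The RNA past the end of Cirbp-202 differed less between the animals than the rest of the gene. Cirbp-201 and Cirbp-205, the forms that reach there, summed to 8.93 TPM (replicate 2) and 6.08 TPM (replicate 1), a log2 difference of 0.56 (counting SE 0.237). They made up 12.2% of the Cirbp TPM in replicate 2 and 19.2% in replicate 1, and 11.1% in replicate 2 and 18.6% in replicate 1 by the second table. The next gene on the same strand, 1600002K03Rik, begins 157 bp after the end of Cirbp and held 26 counts (replicate 2) and 31 counts (replicate 1).

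Rbm3 RNA was divided among several coding transcripts that differ in their first exon, the 3-base acceptor, the end of the exon with the stop codon and the last few bases. That exon ends 4 bases later in Rbm3-202 and Rbm3-204 than in Rbm3-203 and Rbm3-206, past the stop codon. Rbm3-202 had 27.4 TPM in replicate 2, against 9.00 TPM in replicate 1, a log2 difference of 1.55 (SE 0.320). Rbm3-203 had 24.5 TPM (replicate 2) and 13.9 TPM (replicate 1), a log2 difference of 0.77 (SE 0.269). For both, replicate 2 was higher and the credibility intervals did not overlap. Rbm3-204 had 8.12 TPM in replicate 2, against 7.81 TPM in replicate 1, and Rbm3-206, with the longest first exon, 2.11 TPM (replicate 2) and 2.43 TPM (replicate 1). The intervals of both overlapped. Rbm3-201 and Rbm3-205, the coding forms with a distal last exon, were listed at 0 in both libraries, where 3 counts equal 0.0591 to 0.190 TPM. The first table thus assigned all coding Rbm3 RNA to the proximal last exon. The second table put 0.280 TPM (replicate 2) and 0.336 TPM (replicate 1) at the distal one. The upper credibility bounds of Rbm3-201 in the first table were 0.498 TPM (replicate 2) and 0.866 TPM (replicate 1). The noncoding form Rbm3-211 covers the same distal exon and held 21 counts (replicate 2) and 40 counts (replicate 1). How reads there divide between coding and noncoding forms is therefore uncertain.

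The tables did not rank these coding transcripts alike. In the second table Rbm3-206 led with 28.2 TPM in replicate 2, against 15.4 TPM in replicate 1, followed by Rbm3-204 with 13.2 TPM (replicate 2) and 9.78 TPM (replicate 1). Rbm3-202 had 8.20 TPM (replicate 2) and 1.92 TPM (replicate 1) there. The sum of the coding forms was closer, at 57.2 TPM (replicate 2) and 30.9 TPM (replicate 1) in the second table and 62.2 TPM (replicate 2) and 33.1 TPM (replicate 1) in the first. The level of a single Rbm3 coding transcript is therefore uncertain, and the sum is the steadier value. Of the 7 member transcripts averaging 50 counts or more, 3 had intervals wholly higher in replicate 2 (Cirbp-202, Rbm3-202 and Rbm3-203), against 10.7% of 28486 such transcripts in all. Nothing is read from that count, since the members were chosen with the difference between the animals already known.

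**Figure D3:**
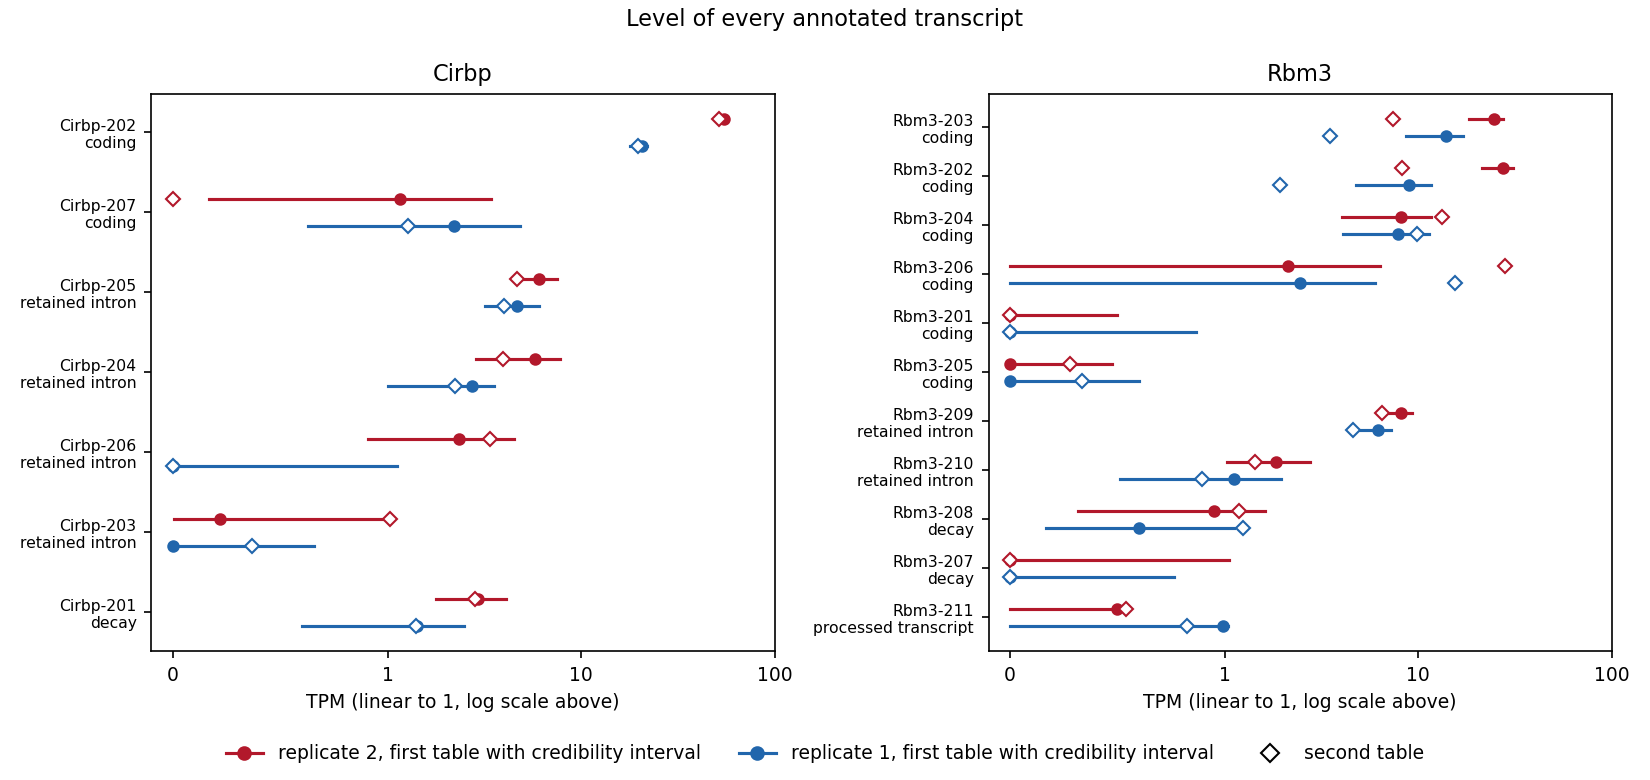
TPM of every annotated transcript of Cirbp (left) and Rbm3 (right), with replicate 2 drawn above replicate 1 in each row. Filled points and lines give the first table with its credibility interval and open diamonds the second table; the x axis is linear to 1 TPM and logarithmic above. Cirbp-202 stands at 55.0 TPM (replicate 2) and 20.7 TPM (replicate 1) and close to that in the second table, while Rbm3-206 stands at 2.11 TPM in replicate 2 in the first table and 28.2 TPM in the second.

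Grouped by acceptor, the frame of 153 codons had 29.5 TPM in replicate 2, against 11.4 TPM in replicate 1, and the frame of 154 codons 32.7 TPM (replicate 2) and 21.7 TPM (replicate 1). The log2 differences were 1.28 (counting SE 0.111) for the shorter frame and 0.55 (counting SE 0.0887) for the longer one. These SEs leave out the error of read assignment, and with it the SE of Rbm3-206 alone was 1.67. Replicate 2 was higher for both, and by more for the shorter frame. The shorter frame made up 47.5% of coding TPM in replicate 2 and 34.5% in replicate 1. In the second table it made up 64.1% in replicate 2 and 57.1% in replicate 1. Both tables put it higher in replicate 2, and they differ on which frame is the more abundant in each animal.

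The noncoding Rbm3 forms were led by Rbm3-209, which keeps the intron around the cassette exon. It had 8.17 TPM in replicate 2, against 6.15 TPM in replicate 1, with overlapping intervals and a log2 difference of 0.35 (SE 0.211). Rbm3-210, which keeps the intron after the second exon, had 1.84 TPM (replicate 2) and 1.12 TPM (replicate 1). The decay form Rbm3-208, with the cassette exon spliced in, had 0.95 TPM (17.12 counts) in replicate 2 and 0.60 TPM (10.47 counts) in replicate 1, and its longer relative Rbm3-207 was listed at 0 in both. Intervals of these forms overlapped between the animals. The processed transcript Rbm3-211, which lies at the distal end of the gene, held 21 counts (replicate 2) and 40 counts (replicate 1), a log2 difference of -1.04 (SE 0.711), with overlapping intervals. In the first table it was the only noncoding form of either gene with a lower value in replicate 2.

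The cassette exon was therefore found mainly inside a kept intron and rarely as a spliced exon. Spliced in, it was present in 1.29% of the Rbm3 TPM in replicate 2 and 1.43% in replicate 1, and in the second table in 1.77% in replicate 2 and 3.23% in replicate 1. Present in any form, it was in 12.4% of the TPM in replicate 2 and 16.1% in replicate 1, and in the second table in 11.5% in replicate 2 and 15.2% in replicate 1. All forms with it summed to 9.12 TPM in replicate 2, against 6.75 TPM in replicate 1, a log2 difference of 0.37 (counting SE 0.159), against 0.85 (counting SE 0.0689) for the coding forms.

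Total RNA libraries also hold unspliced RNA, which cannot be told apart from kept introns here. By class, coding transcripts held most of the RNA of both genes, and their share was higher in replicate 2. Cirbp was 76.5% coding in replicate 2 and 72.2% in replicate 1 by TPM (mean 74.4 ± 3.05%, SD, n = 2). Rbm3 was 84.4% coding in replicate 2 and 78.9% in replicate 1 (81.7 ± 3.93%). Retained introns took 19.5% of Cirbp in replicate 2 and 23.3% in replicate 1, and 13.6% of Rbm3 in replicate 2 and 17.3% in replicate 1. Within this Cirbp class, the summed forms that keep the last intron of the coding frame went the other way. They took 11.0% of Cirbp in replicate 2 and 8.56% in replicate 1. That direction rests on Cirbp-206, at 3.17% in replicate 2 and 0 in replicate 1, with overlapping intervals. Cirbp-204 alone took 7.81% in replicate 2 and 8.57% in replicate 1. Cirbp-205, which lies past the end of Cirbp-202, took 8.20% in replicate 2 and 14.8% in replicate 1. The decay forms were the smaller class, at 3.97% of Cirbp in replicate 2 and 4.46% in replicate 1, and 1.29% of Rbm3 in replicate 2 and 1.43% in replicate 1. Counted in reads, the Rbm3 coding share was 84.3% in replicate 2 (95% Wilson interval 82.4 to 86.1) and 77.4% in replicate 1 (74.4 to 80.0), and these intervals did not overlap. Those of Cirbp, 85.3% in replicate 2 (83.4 to 87.0) and 82.4% in replicate 1 (79.0 to 85.2), did. The Wilson intervals cover counting error only, and they leave out the error of assigning reads to transcripts that share most of their sequence. Retained introns took 13.22% of the Rbm3 counts in replicate 2 and 16.75% in replicate 1. The single processed transcript Rbm3-211, whose credibility intervals overlapped, took 1.371% in replicate 2 and 4.665% in replicate 1.

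**Figure D4:**
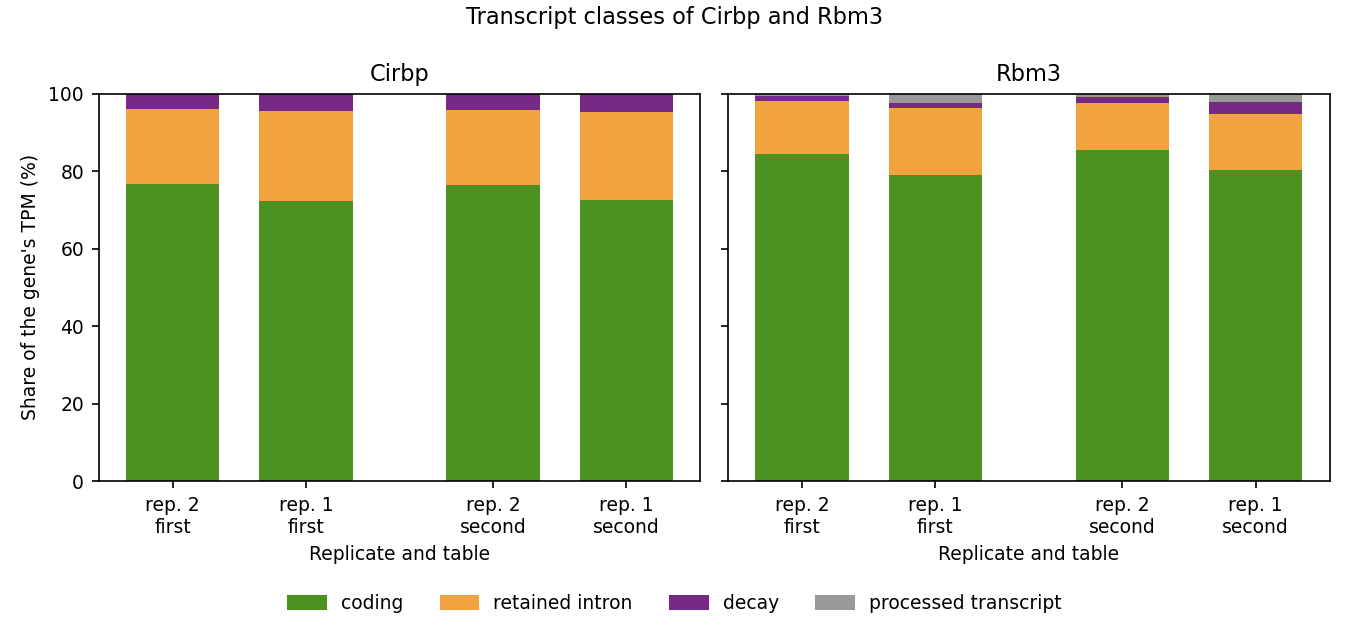
Share of each gene's TPM (y axis, percent) in coding, retained intron, decay and processed transcript forms, for replicate 2 and replicate 1 in the first and the second table. Coding forms hold 72.2 to 76.5% of Cirbp and 78.9 to 85.5% of Rbm3, with the higher value of each pair in replicate 2.

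In absolute level, every class of Cirbp was higher in replicate 2. The log2 difference was 1.33 (counting SE 0.0778) for its coding forms, 1.03 (counting SE 0.192) for its retained introns and 0.99 (counting SE 0.403) for its decay form. In Rbm3 the coding forms differed by 0.85, the retained introns by 0.38 (counting SE 0.157) and all noncoding forms together by 0.20 (counting SE 0.139). The level of noncoding Rbm3 RNA thus differed between the animals by less than its coding RNA, with 11.5 TPM (replicate 2) and 8.86 TPM (replicate 1). Shares of this kind varied widely over genes. Over 4819 genes at 20 TPM or more with coding and other forms, the difference in coding share had a central 95% from -15.2 to 11.0 points and a median of -1.01. The 4.31 points of Cirbp lay above 89.5% of those genes and the 5.56 points of Rbm3 above 91.7%, inside that range. The retained intron share was 21.4% for Cirbp and 15.5% for Rbm3 on average, against a median of 7.07% over 3720 genes with such forms. Of these genes, 80.2% had a lower share than Cirbp and 72.2% a lower share than Rbm3. In the second table these values were 77.9% for Cirbp and 64.8% for Rbm3.

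Rbm3 has near-identical copies elsewhere in the genome, and Cirbp had none at 95% identity or more over 100 nt among annotated transcripts. The processed pseudogene Rbm3-ps (chromosome 1, 150265535 to 150265999) matches Rbm3 at 99.4% over 465 nt. Its counts were 77.67 in replicate 2 and 51.83 in replicate 1, and 40.91 in replicate 2 and 19.39 in replicate 1 by the second table. The pseudogene Gm48583 on chromosome 13 matches at 98.7% over 223 nt and held 37.89 counts (replicate 2) and 15.77 counts (replicate 1), but 0 in both in the second table. Gm10156 and Gm13624 had at most 0.9 counts. Reads of these copies and of Rbm3 cannot be told apart with certainty, and adding the counts of all 4 pseudogenes to Rbm3 gave a log2 difference of 0.72. Adding their TPM in the first table raised the mean Rbm3 level from 57.8 to 79.4 TPM, so the level depends on them more. A processed transcript of Phospho2 also matches Rbm3 at 97.4% over 380 nt, and Phospho2 as a whole held 377 counts (replicate 2) and 400 counts (replicate 1).

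Genes beside the members had smaller or opposite differences. Upstream of Cirbp, Midn, a regulator of protein breakdown, had 23.0 TPM in replicate 2, against 39.3 TPM in replicate 1 (log2 -0.73), and Atp5d, a subunit of the mitochondrial ATP synthase, had a log2 difference of -0.14, or 0.11 with spike-in scaling. Downstream, the ephrin gene Efna2 had a log2 difference of 0.41 (counting SE 0.190). Around Rbm3 the log2 differences were 0.11 for Wdr13, -0.12 for Tbc1d25 (0.13 with spike-in scaling) and -0.29 for Ebp, an enzyme of sterol synthesis. Gm6787 held 0 counts (replicate 2) and 2 counts (replicate 1). The antisense gene Rbm3os overlaps Rbm3 by 452 nt and held 2 counts (replicate 2) and 4 counts (replicate 1). The labels name a directional library kit, and no source used here says whether the counting used the strand.

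Genes listed for the cold response and its regulators lay mostly near 0. The list is broad and not limited to genes that themselves respond to cold. Of 13 such genes averaging 50 counts or more, 4 were higher and 9 lower in replicate 2 (11 higher when scaled on spike-ins), and they had a median log2 difference of -0.07, against 0.0025 over all 14127 genes. Srsf5, a splicing factor of the SR family with a described cold response, stood apart at 146 TPM (replicate 2) and 77.9 TPM (replicate 1) (log2 0.75, counting SE 0.0374). Replicate 2 was higher and the intervals did not overlap. Rtn3, which carries part of the action of RBM3 on synapses in mice, had 402 TPM in replicate 2, against 380 TPM in replicate 1 (log2 0.03). Ntrk2, the BDNF receptor gene placed upstream of Rbm3 in cooled mice, had 175 TPM (replicate 2) and 176 TPM (replicate 1) (log2 -0.07). Hnrnph1, whose protein promotes skipping of the Rbm3 cassette exon in cultured cells, had 85.0 TPM in replicate 2, against 100 TPM in replicate 1 (log2 -0.28), and Creb1 had a log2 difference of -0.29. The initiation factor gene Eif4g1 stood at -0.08, and scaled on spike-ins it turned to 0.17 and Ntrk2 to 0.18. Trpv4, a warm-sensitive ion channel gene, had 0.52 TPM (replicate 2) and 0.80 TPM (replicate 1) and was below 50 counts. Intervals were apart for 3 genes higher and 3 lower in replicate 2, where 13.9% of all genes were wholly higher and 5.87% wholly lower.

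CLK kinases phosphorylate SR proteins, and their activity changes with body temperature. Of 20 genes of CLK and SRPK kinases and SR proteins, 9 were higher and 11 lower in replicate 2 (17 higher when scaled on spike-ins), and they had a median of -0.0064. Intervals were apart for 4 higher genes (Srsf5, Srpk3, Srsf11 and Clk4) and 2 lower ones (Tra2a and Srsf10), where 13.9% of all genes were wholly higher and 5.87% wholly lower. Srpk3 had 3.84 TPM in replicate 2, against 1.66 TPM in replicate 1 (log2 0.87, counting SE 0.219), and Tra2a, a splicing activator, 21.4 TPM (replicate 2) and 34.2 TPM (replicate 1) (log2 -0.62). The abundant members Srpk2, Srsf1 and Srsf2 lay between -0.01 and 0.05, and Srsf1, the lowest, turned to 0.24 when scaled on spike-ins. Srsf11, Clk4 and Srsf10 were named after their values were seen.

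Of 40 other genes whose proteins carry RNA recognition motifs, 23 were higher and 17 lower in replicate 2 (34 higher when scaled on spike-ins), and they had a median log2 difference of 0.08. Intervals were apart for 12 higher and 2 lower genes, against 13.9% higher and 5.87% lower over all genes. Hnrnpdl, a ribonucleoprotein that regulates splicing, came nearest to the members at 92.9 TPM in replicate 2, against 52.8 TPM in replicate 1 (log2 0.84, counting SE 0.0385). The abundant Hnrnpa1, Hnrnpa2b1 and Hnrnpa3 lay at 0.28, -0.05 (0.20 when scaled on spike-ins) and 0.09, and Rbm41 at -0.51 with overlapping intervals. None of the 40 exceeded Cirbp in its log2 difference, and 1 exceeded Rbm3. Of all 14127 genes, 0.333% exceeded Cirbp and 2.36% exceeded Rbm3, so nothing is read from these counts.

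**Figure D5:**
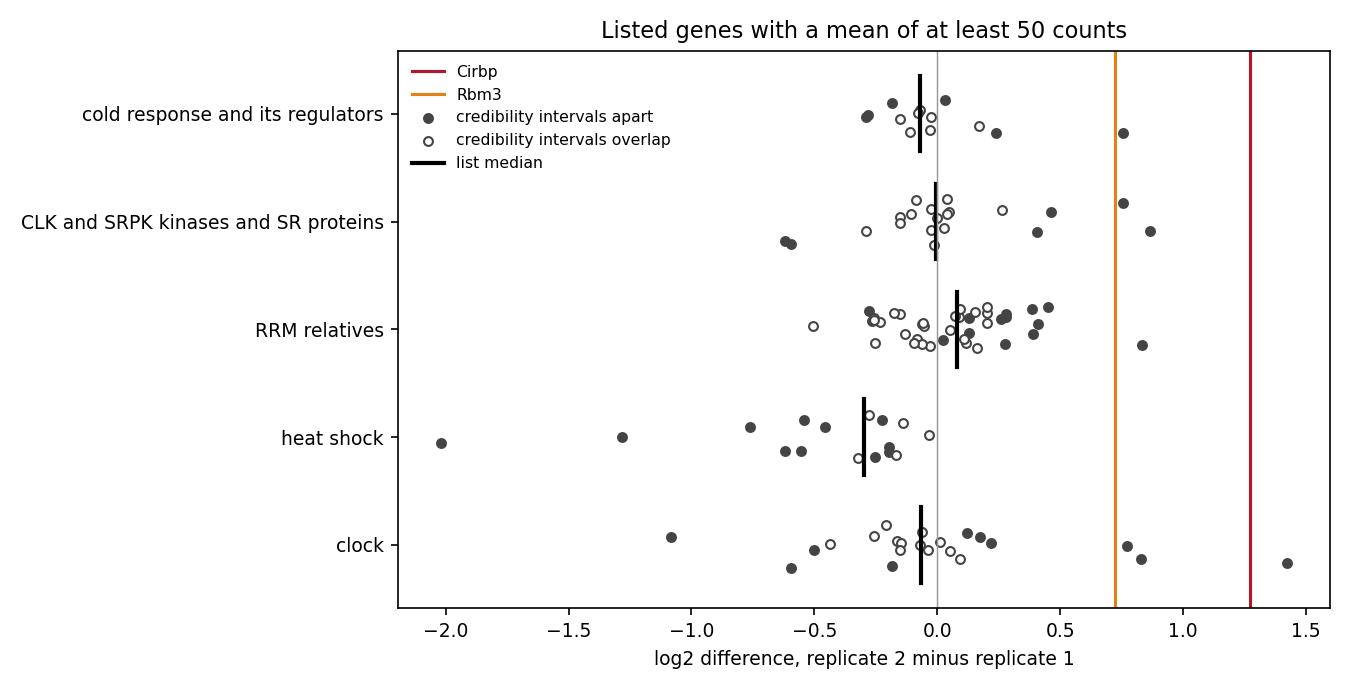
Log2 difference, replicate 2 minus replicate 1, of the genes of 5 lists that averaged 50 counts or more, each point a gene and black bars the list medians. Filled points mark genes whose credibility intervals do not overlap, and coloured lines mark Cirbp at 1.27 and Rbm3 at 0.72; the heat shock genes lie between -2.02 and -0.04 with this TMM scaling, and 6 of 16 lie above 0 with spike-in scaling.

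Heat shock genes had lower values in replicate 2 with TMM scaling in all 16 cases, and in 10 of 16 when scaled on spike-ins. They mostly encode chaperones and their partners, and the list was chosen with earlier results of these data known. A part of temperature in these differences was not tested. The list had a median log2 difference of -0.30. Intervals lay wholly lower in replicate 2 for 11 of them, against 5.87% of all genes. Hspa1b, the inducible Hsp70 gene, had 3.29 TPM in replicate 2, against 12.9 TPM in replicate 1 (log2 -2.02), though its reads are hard to separate from the near-identical Hspa1a, which had 342 counts in replicate 2 and 395.76 in replicate 1 (log2 -0.32, intervals overlapping). Summed, both held 509.53 counts in replicate 2, against 1029.65 in replicate 1, a log2 difference of -1.13 (counting SE 0.0781). Hspb1 had 5.15 TPM (replicate 2) and 12.2 TPM (replicate 1) (log2 -1.28), and Chordc1, an Hsp90 partner, 33.1 TPM (replicate 2) and 47.8 TPM (replicate 1) (log2 -0.76). Replicate 1 was the higher library for these 3 genes. Of the abundant members, Hspa8 stood at -0.62, Hsph1 at -0.54, Hsp90aa1 at -0.17 and Hsp90ab1 at -0.19, and scaled on spike-ins these last turned to 0.08 for Hsp90aa1 and 0.06 for Hsp90ab1.

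The members are also clock-linked, since daily body temperature drives their rhythm. Of 22 clock genes, 9 were higher and 13 lower in replicate 2 (17 higher when scaled on spike-ins), and they had a median of -0.07, and intervals were apart for 6 higher and 4 lower genes, against 13.9% and 5.87% of all genes in these directions. The repressor gene Ciart had 25.7 TPM in replicate 2, against 11.8 TPM in replicate 1 (log2 1.43), Nr1d1 had 83.8 TPM (replicate 2) and 44.9 TPM (replicate 1) (log2 0.83) and Dbp, an output factor gene, 112 TPM (replicate 2) and 63.8 TPM (replicate 1) (log2 0.77). Per2, a repressor gene with a heat-responsive promoter, had 8.71 TPM (replicate 2) and 18.5 TPM (replicate 1) (log2 -1.08). Tef, Hlf and Csnk1e lay at -0.15, -0.06 and -0.04, and at 0.10, 0.19 and 0.21 when scaled on spike-ins. The hour at which the animals were killed is not given in the labels.

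Genes most like the members were sought by the distance in log2 mean TPM and log2 difference together, over 2 libraries and 12830 protein-coding genes averaging 50 counts or more. Nearest to Rbm3 were Usp2, a deubiquitinase gene (81.4 TPM in replicate 2, 45.4 TPM in replicate 1, log2 0.75), the kinase gene Sgk1 (67.5 TPM in replicate 2, 35.8 TPM in replicate 1, log2 0.77), Nr1d1, Haghl and the splicing cofactor gene Srrm1. Nearest to Cirbp were Rps12-ps3, Leng8 (70.7 TPM in replicate 2, 34.9 TPM in replicate 1, log2 0.95), Sgk1, Haghl and Nr1d1. Rps12-ps3 is named as a pseudogene of a ribosomal protein gene, and its log2 difference of 1.52 turned to -0.47 in the second table, so its likeness is uncertain. Sgk1, Haghl and Nr1d1 were named for both members. By class shares, over 5703 genes at 20 TPM or more, the genes near Cirbp included Golga4 (75.4% coding, 21.6% retained intron), Trappc6b, Camk2d and Parl, whose log2 differences ran from -0.11 to 0.38. Rbm3 was nearest to Usp33 (81.3% coding, 16.6% retained intron), Robo1, Pick1, Ankrd28 and Emg1, from -0.19 to 0.19. The genes named here by class shares had smaller log2 differences than the members. The intervals of Parl lay wholly higher in replicate 2, and those of the other named ones overlapped. Only 2.36% of all genes exceeded Rbm3 in log2 difference, so nothing is read from these few genes.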

How the data were processed

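Per the file headers, the authors deposited for each library a gene and a transcript table with expected counts, TPM, each transcript's share of its gene in percent and TPM credibility bounds (a score whose level is not stated), called the first table, and a transcript table of estimated counts and TPM in another column layout, the second table. Build mm10 and GENCODE M21 are named in the deposited readme; no source used here names the aligner or counters. Expected counts were rounded, scaled by TMM (edgeR 4.0.16, R 4.3.3) on genes averaging 50 counts or more and compared as log2 CPM with a prior count of 1; those of transcripts and classes used scaled counts without it. The scaling script was tested on simulated data. The replicates have no contrast between groups, so no test was run. DESeq2 1.42.0 size factors, total counts, spike-ins, other filters and the second table were alternatives. Copies were sought with BLAST. Named genes were all member transcripts, the 2 nearest genes on each side and any that overlaps, up to 4 members of each list by level and 3 by log2 difference, and the 5 nearest genes by each likeness measure; 2 genes so chosen are not reported here. Members and lists were chosen with earlier results of these data known.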

Additional observations from a re-analysis of the deposited data

How the results depend on the processing

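The direction of both members held under the 7 alternatives for each log2 difference. Spike-in scaling, which adds 0.25 to the median of all genes, moved Cirbp to 1.53 and Rbm3 to 0.98. The other values lay between 1.19 and 1.29 for Cirbp and between 0.70 and 0.80 for Rbm3, and 0.72 with the pseudogenes added, an alternative chosen after seeing the data. Leaving out a replicate gave mean levels of 31.7 to 73.4 TPM for Cirbp and 42.0 to 73.7 TPM for Rbm3, the lower of each without replicate 2. With the pseudogenes added, the mean Rbm3 level was 79.4 TPM. As shares of counts in place of TPM, Cirbp was 83.8% coding, 13.2% retained intron and 2.99% decay, and the Rbm3 decay share was 1.17%. That share was 2.498% in the second table and 2.02% from posterior mean TPM. Without either replicate the coding share ran from 72.2 to 76.5% for Cirbp and from 78.9 to 84.4% for Rbm3, the retained intron share from 19.5 to 23.3% and from 13.6 to 17.3%, and the decay share from 3.97 to 4.46% and from 1.29 to 1.43%, Cirbp first in each. Genes over 2-fold apart numbered 185 (100 higher, 85 lower), 341 with spike-in scaling (294 higher, 47 lower), 891 with a minimum of 10 counts (607 higher, 284 lower) and 5205 with no minimum (2677 higher, 2528 lower). Of the 31 listed genes that the naming rule picked, 9 changed sign with spike-in scaling (Csnk1e, Eif4g1, Hlf, Hnrnpa2b1, Hsp90aa1, Hsp90ab1, Ntrk2, Srsf1 and Tef), of which Hsp90ab1, at 0.0574, had intervals apart. Srsf1 also changed sign with total counts. Adding Hspa1a to Hspa1b, chosen after seeing the data, moved its log2 difference to -1.13. The causes were not tested, except that lower minimums admit more genes. Depth limits the decay and processed forms, of which Rbm3-207 was listed at 0 in both libraries. The others rest on 10.47 counts (Rbm3-208 in replicate 1) to 40.23 counts (Cirbp-201 in replicate 2). No paired analysis was possible because there is 1 group.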
